A study of Mus musculus with 384 samples.

Results

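The genes described here are the rho subunits of the GABA-C receptor (Gabrr1, Gabrr2, Gabrr3) and the subunits of the glycine receptor (Glra1, Glra2, Glra3, Glrb). They are 7 of the 32813 genes with values, chosen by family name and not by their levels. Earlier results of these data were known when the choice was made. The series holds 384 single cells sorted from 4 retinas of 2 mice at postnatal day 17 (P17), and 383 of them had values. Smart-seq2, a full-length cDNA method, was run on each cell, and the files hold estimated counts and TPM (a level corrected for transcript length and scaled to the same total in each cell). All cells came from Kcng4-cre;stop-YFP animals, in which the Kcng4tm1.1(cre)Jrs allele drives Cre and the Thy1-stop-YFP Line#1 reporter gives yellow fluorescence in cells where Cre acted. Mouse 1 gave retinas 1la and 1Ra, and mouse 2 gave 2la and 2Ra. No animal without these alleles was analysed here.

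The comparison was between cells of the same sort. Cells with at least 3000 genes at an estimated count of 1 or more were kept, which left 321, and the 62 other wells stood under that minimum. Kept cells were then grouped by which of 3 marker transcripts reached 20 TPM. The Ddit4l-only group had 59 cells (10, 19, 20 and 10 in 1la, 1Ra, 2la and 2Ra), the Vsx1-only group 60 (16, 18, 14 and 12) and the Sox6-only group 151 (33, 30, 46 and 42). Another 18 kept cells had several of the markers and 33 had none of them. The lowest marker level inside its own group was 36.4 TPM for Ddit4l, 31.01 TPM for Vsx1 and 20.8 TPM for Sox6, and 3, 4 and 5 kept cells lay between 10 and 20 TPM. None of the 7 genes was used to form the groups.

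Kept cells had 203657 to 1945582 counts (median 1065569) and a median of 6354 genes, and no pair of cells correlated above 0.728, so none looked like a library deposited again. The median mitochondrial share of counts was 2.06%, 4.26%, 2.14% and 4.88% in retinas 1la, 1Ra, 2la and 2Ra. Of 12 bipolar cell markers, 10 had at least 1 TPM in the majority of Ddit4l-only cells, 11 in the majority of Vsx1-only cells and 12 in that of Sox6-only cells. Those markers summed to 5902 to 7958 TPM over the retinas in Ddit4l-only cells, 8066 to 10270 TPM in Vsx1-only cells and 9370 to 12390 TPM in Sox6-only cells. Pcp2 and Scgn had a median of 0 in Ddit4l-only cells, and Lhx4 had a median of 0 in Vsx1-only cells. Of 8 amacrine cell markers, 0 reached 1 TPM in most cells of any group. Of 5 horizontal cell markers, Calb1 and Sept4 were detected in most cells and Lhx1, Onecut1 and Onecut2 had a median of 0. The list summed to 252 to 562 TPM over the retinas in Ddit4l-only, 170 to 316 TPM in Vsx1-only and 192 to 309 TPM in Sox6-only cells. Of 7 OFF bipolar cell markers, 6 had a median of 0 in Ddit4l-only, 7 in Vsx1-only and 6 in Sox6-only cells, and the list summed to 48 to 163 TPM, 19.2 to 165 TPM and 72.5 to 206 TPM. Rod transcripts were present in every group, at a summed 549 to 1897 TPM in Ddit4l-only cells, 843 to 3440 TPM in Vsx1-only cells and 1220 to 2626 TPM in Sox6-only cells. Of 8 Müller glia markers, Slc1a3 had at least 1 TPM in most cells of each group. So did Clu in Ddit4l-only, Glul in Vsx1-only and both in Sox6-only cells. That list summed to 339 to 408, 247 to 2209 and 330 to 843 TPM over the retinas in the same groups.

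Bipolar cells carry signals from photoreceptors to the inner retina, and their axon terminals are inhibited by amacrine cells, which release GABA or glycine. GABA-C receptors are chloride channels built from rho subunits, and they open slowly and for long, which makes them a main brake on bipolar cell output. Glycine receptors are chloride channels built from alpha subunits, which bind glycine, and the beta subunit, which ties the receptor to the scaffold protein gephyrin. In the retina they are best known from OFF bipolar, amacrine and ganglion cells.

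Gabrr2 and Gabrr1 lie next to each other on the same strand, and Gabrr3 lies on another chromosome. In GENCODE vM21 (GRCm38), Gabrr2 spans chr4:33062999-33095865 and Gabrr1 spans chr4:33132521-33163588, with 36655 bases between them, and Gabrr3 spans chr16:59407332-59464504, all on the plus strand. The sequences in front of these 3 genes are shown because the pair of neighbours differed in how their levels varied over the cell groups. They are RefSeq promoter sequences (GRCm38.p6, plus strand, 5′ to 3′), printed up to the base before the GENCODE start, at chr4:33062862-33062998, chr4:33132306-33132520 and chr16:59407132-59407331. Capitals mark a match to TAATCC, the core bound by the retinal homeodomain factors Otx2 and Crx, here read on the other strand.
Gabrr2: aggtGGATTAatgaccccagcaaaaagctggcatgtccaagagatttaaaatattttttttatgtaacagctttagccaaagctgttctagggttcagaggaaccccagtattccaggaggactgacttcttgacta
Gabrr1: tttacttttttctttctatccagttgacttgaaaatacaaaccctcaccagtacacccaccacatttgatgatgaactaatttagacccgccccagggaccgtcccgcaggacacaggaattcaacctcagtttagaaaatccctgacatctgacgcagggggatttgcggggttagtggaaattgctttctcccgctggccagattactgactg
Gabrr3: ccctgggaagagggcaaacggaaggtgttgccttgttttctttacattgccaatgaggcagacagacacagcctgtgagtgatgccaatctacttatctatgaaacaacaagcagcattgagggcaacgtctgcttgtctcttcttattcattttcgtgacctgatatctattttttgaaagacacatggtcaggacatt
The Otx2 core, a core bound by other homeodomain factors (TAATTA) and a core bound by Sox factors (AACAAT) were searched on both strands in the 250 bases before each RefSeq start, and the match in front of Gabrr2 was the only match in the 3 genes. Among 32851 RefSeq windows of that length, 6.25% held the Otx2 core, 4.84% the homeodomain core and 9.42% the Sox core. The match overlaps no other motif searched for. It is a description of letters and was not tied to the levels below.

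Gabrr2, the rho2 subunit, was the most abundant of the 7 genes in Vsx1-only and Sox6-only cells and was several times lower in Ddit4l-only cells. Its mean over cells was 544, 436, 373 and 240.2 TPM in Ddit4l-only cells of retinas 1la, 1Ra, 2la and 2Ra. In Vsx1-only cells it was 2440, 2336, 1859 and 1457 TPM, and in Sox6-only cells 2529, 2496, 2524 and 1767 TPM. Every Ddit4l-only value lay below every value of the other groups, whose ranges overlapped, and retina 2Ra was lowest in all 3 groups.

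**Figure D1:**
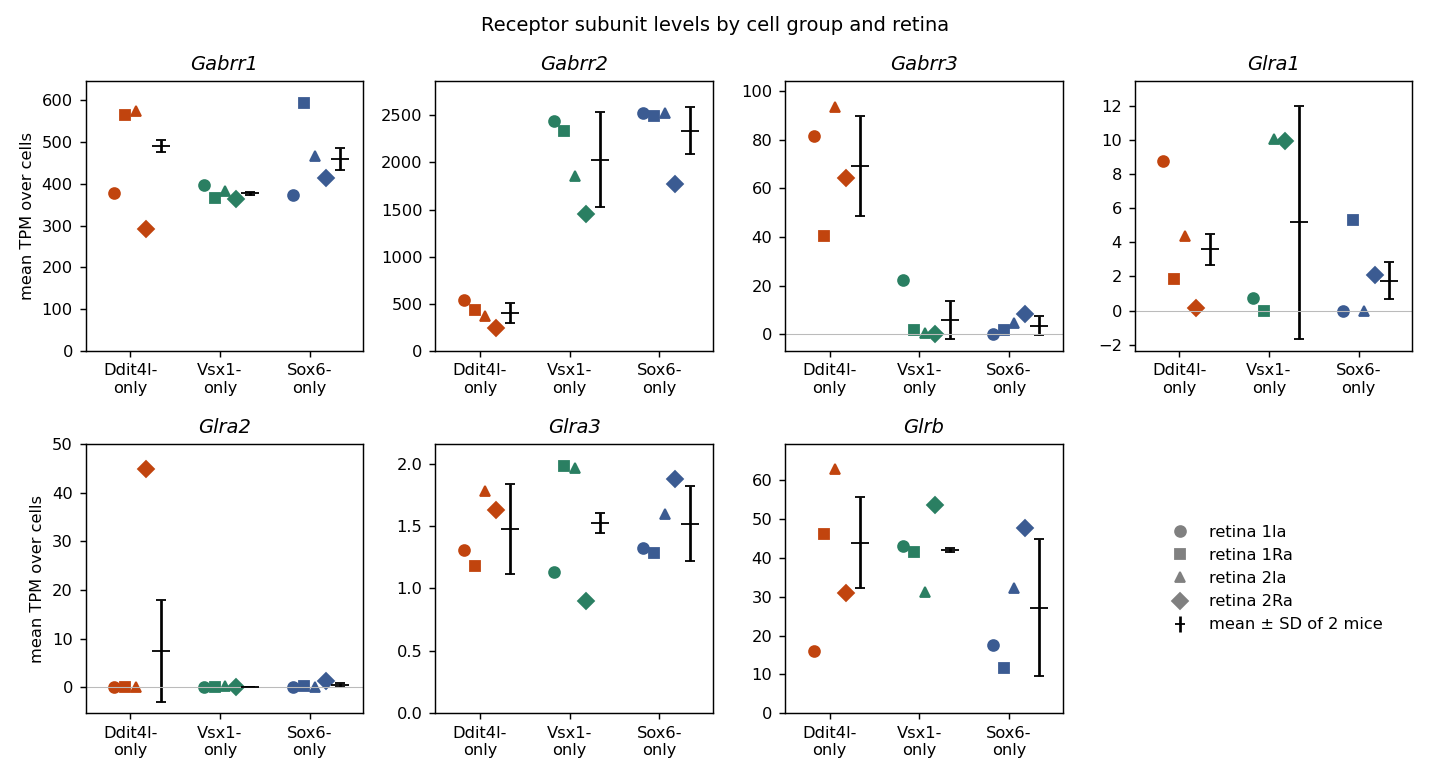
Mean TPM over the cells of each group (vertical axis, 1 panel per gene) in Ddit4l-only, Vsx1-only and Sox6-only cells, with 1 symbol per retina and the mean ± SD of the 2 mice as a bar. Gabrr2 is at 240.2 to 544 TPM in Ddit4l-only cells and at 1457 to 2529 TPM in the other groups, Gabrr3 shows the opposite order, and the 44.9 TPM of Glra2 belongs to a single retina.

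Counts were summed over the cells of each mouse and group, and the sums were tested for all genes at once with edgeR's quasi-likelihood test, with the mouse as a block. A gene was called at a Benjamini-Hochberg adjusted p under 0.05 and a change of at least 2-fold. The sums gave 388 ± 151 CPM (counts relative to the size of each sum) of Gabrr2 in Ddit4l-only cells, 1914 ± 466 CPM in Vsx1-only cells and 2163 ± 207 CPM in Sox6-only cells (SD, n = 2 mice). The log2 fold change of Ddit4l-only over Sox6-only cells was -2.53 ± 0.19 (SE), which is 5.79-fold lower, with an adjusted p of 0.252 in edgeR's test. Against Vsx1-only cells it was -2.33 ± 0.19, or 5.03-fold lower, with an adjusted p of 0.0926 in edgeR's test. Neither passed, although Gabrr2 had the 5th smallest and the 23rd smallest unadjusted p of the genes tested (9.51e-05 and 0.000131, edgeR). Vsx1-only over Sox6-only cells gave -0.20 ± 0.18 with an edgeR adjusted p of 0.876.

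Those results stand against a fit with very few calls. All 7 genes passed its filter on low counts, and 0 were called in any of the comparisons. Of 16639 genes tested, 0.0% were called between Vsx1-only and Sox6-only cells, 0.0% between Ddit4l-only and Sox6-only cells, and 0.0421% (7 genes, all higher) between Ddit4l-only and Vsx1-only cells, one of them being Ddit4l itself. In edgeR's fit 1427, 1336 and 2131 genes had an unadjusted p under 0.05 in those comparisons, and DESeq2 called 850, 760 and 1617 genes (5.11%, 4.57% and 9.72%). With 4 retina sums per group in place of 2 mouse sums, edgeR called 0.565% of 14513 genes between Ddit4l-only and Sox6-only cells, 2.29% between Ddit4l-only and Vsx1-only cells and 0.806% between Vsx1-only and Sox6-only cells. Gabrr2 was among them in both, at -2.52 ± 0.16 (adjusted p = 0.000515) and -2.34 ± 0.16 (adjusted p = 0.000228), but retinas of the same mouse are not independent animals. DESeq2 on mouse sums also called Gabrr2 in both (adjusted p = 3.54e-21 and 6.40e-19), as did limma on mean TPM (adjusted p = 0.0158 and 0.00362). Limma called 0.159% and 1.53% of 15064 genes in those comparisons and 0.438% between Vsx1-only and Sox6-only cells.

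In the alternatives run with a test, the log2 fold change of Gabrr2 stayed between -2.69 and -2.37 for Ddit4l-only over Sox6-only cells and between -2.49 and -2.17 for Ddit4l-only over Vsx1-only cells. Within mouse 1 the log2 difference of Gabrr2 between Ddit4l-only and Sox6-only cells was -2.22, and within mouse 2 it was -2.84, with no test possible in a single mouse. Summed bipolar marker levels over the retinas were also lower in Ddit4l-only cells (5902 to 7958 TPM, against 8066 to 10270 TPM in Vsx1-only and 9370 to 12390 TPM in Sox6-only cells). The summed horizontal cell list had a median cell of 405 TPM in Ddit4l-only, 174 TPM in Vsx1-only and 179 TPM in Sox6-only cells. Of that list only Calb1 and Sept4 had at least 1 TPM in most cells. Rod sums overlapped between the groups. Without cells at 1000 TPM or more of summed rod transcripts, the log2 fold change of Gabrr2 was -2.38 over Sox6-only and -2.27 over Vsx1-only cells, and the part of the bipolar and horizontal lists in the result was not tested. In CPM of the retina sums, the 4 Ddit4l-only retinas lay entirely beyond the 4 Sox6-only retinas for 2 of the 6 receptor genes that passed that filter, Gabrr2 (lower) and Gabrr3 (higher), against 7.08% of all genes. Between Ddit4l-only and Vsx1-only cells the same 2 genes did so, against 8.41% of all genes, and between Vsx1-only and Sox6-only cells 0 of the 6 did, against 8.1%.

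**Figure D2:**
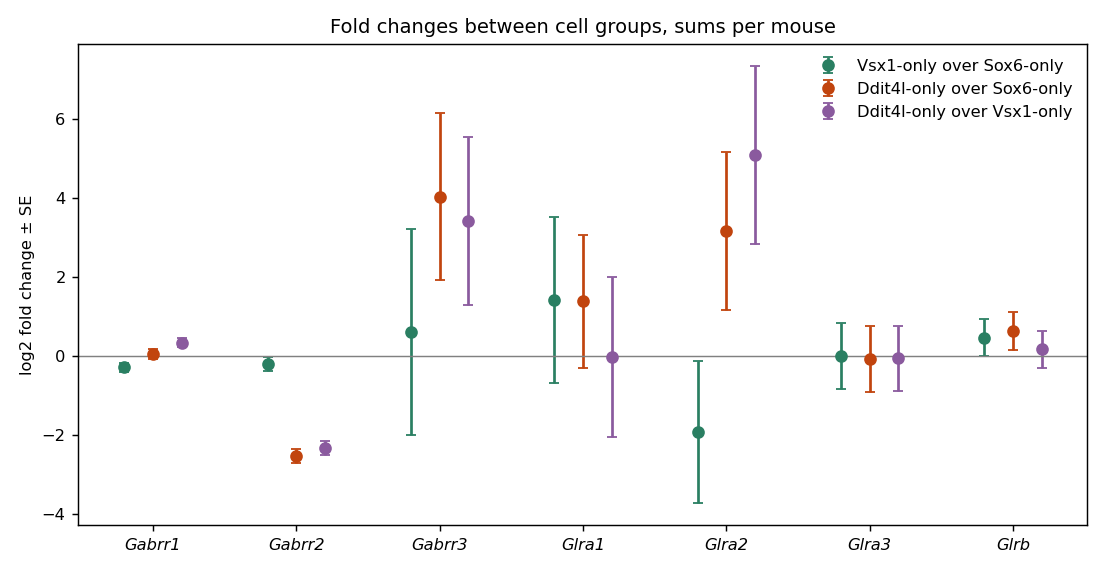
Log2 fold change ± SE (vertical axis) of each gene from edgeR on sums per mouse, with Vsx1-only over Sox6-only, Ddit4l-only over Sox6-only and Ddit4l-only over Vsx1-only cells as 3 colours. Gabrr2 sits at -2.53 and -2.33 in the contrasts with Ddit4l-only cells with an SE of 0.19, while the SE of Gabrr3, Glra1 and Glra2 lies between 1.68 and 2.61.

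Cell by cell, low Gabrr2 in the Ddit4l-only group was a broad spread and not an absence. An estimated count of at least 1 was found in 56 of 59 Ddit4l-only cells, 60 of 60 Vsx1-only cells and 150 of 151 Sox6-only cells, but 20 TPM was reached in 46, 60 and 149 of them. The median cell had 282 TPM (quartiles 48.4 and 568) in the Ddit4l-only group, 1963 TPM (1364 and 2627) in the Vsx1-only group and 2093 TPM (1383 and 2935) in the Sox6-only group. The upper quartile of Ddit4l-only cells was thus under the lower quartile of the other groups. Ddit4l-only cells reached up to 1901 TPM.

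Gabrr1, the rho1 subunit, did not show that order. Its mean was 379, 564, 575 and 293 TPM in Ddit4l-only cells of 1la, 1Ra, 2la and 2Ra, 396, 365, 383 and 364 TPM in Vsx1-only cells, and 374, 595, 466 and 414 TPM in Sox6-only cells. The ranges of the groups overlapped. Mouse sums held 675 ± 13.7 CPM in Ddit4l-only, 536 ± 17.2 CPM in Vsx1-only and 656 ± 17.9 CPM in Sox6-only cells (SD, n = 2 mice). The log2 fold change was 0.04 ± 0.12 for Ddit4l-only over Sox6-only cells (edgeR adjusted p = 0.981), 0.34 ± 0.12 for Ddit4l-only over Vsx1-only cells (adjusted p = 0.384) and -0.29 ± 0.12 for Vsx1-only over Sox6-only cells (adjusted p = 0.619). Gabrr1 was found in 93.2% of Ddit4l-only, 91.7% of Vsx1-only and 94.7% of Sox6-only cells, with the retinas between 83.3% and 100%.

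The ratio of rho2 to rho1 transcripts therefore differed. Mean Gabrr2 TPM divided by mean Gabrr1 TPM was 1.44, 0.773, 0.648 and 0.821 in Ddit4l-only cells of 1la, 1Ra, 2la and 2Ra. It was between 4.01 and 6.39 over the retinas in Vsx1-only cells and between 4.199 and 6.76 in Sox6-only cells. Among cells with counts of both genes, Gabrr1 stood above Gabrr2 in 32 of 52 Ddit4l-only cells (61.5%), 2 of 55 Vsx1-only cells (3.64%) and 2 of 142 Sox6-only cells (1.41%). Summed over the rho subunits, the level was 1004, 1040, 1041 and 597 TPM in Ddit4l-only cells, 2858, 2703, 2243 and 1820 TPM in Vsx1-only cells and 2903, 3092, 2995 and 2189 TPM in Sox6-only cells. Gabrr1 made up 51.1%, 15.3% and 16.5% of that sum, Gabrr2 41.7%, 84.4% and 83.4%, and Gabrr3 7.24%, 0.269% and 0.148% in the same groups. No test was run on these ratios, which use the values already given.

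**Figure D3:**
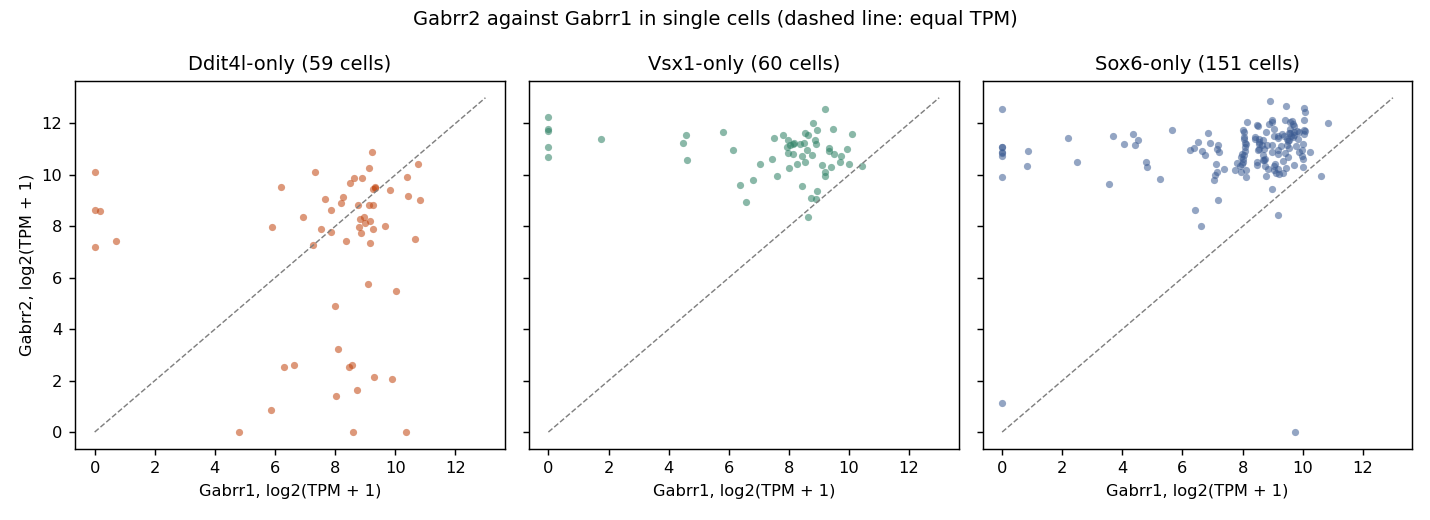
Gabrr2 (vertical axis) against Gabrr1 (horizontal axis), both as log2(TPM + 1), with 1 point per cell in the Ddit4l-only, Vsx1-only and Sox6-only groups and a dashed line at equal TPM. Points of Ddit4l-only cells scatter around and below the line, with 32 of 52 cells that have both transcripts under it, while nearly all points of the other groups lie above it.

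Most cells held both subunits. Counts of Gabrr1 and Gabrr2 were found together in 88.1% of Ddit4l-only, 91.7% of Vsx1-only and 94.04% of Sox6-only cells. Across the cells of a group their log2(TPM + 1) values gave a Pearson r of 0.01 over 59 Ddit4l-only, -0.24 over 60 Vsx1-only and 0.19 over 151 Sox6-only cells, and a Spearman rho of 0.20, -0.17 and 0.30. The Sox6-only cells without Gabrr1 included 8 with Gabrr2 counts, and a single Sox6-only cell had Gabrr1 and no Gabrr2. That cell, of retina 1Ra, also held 159 TPM of Glra1 and 50.6 TPM of Gabrr3.

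Gabrr3, the rho3 subunit, was at its highest in Ddit4l-only cells among the 3 groups. Its mean was 81.7, 40.6, 93.5 and 64.2 TPM in Ddit4l-only cells of 1la, 1Ra, 2la and 2Ra. In Vsx1-only cells it was 22.3, 1.75, 0.653 and 0 TPM, and in Sox6-only cells 0, 1.69, 4.64 and 8.44 TPM. Every Ddit4l-only retina lay above every retina of the other groups, and retina 1la stood apart among the Vsx1-only values.

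Mouse sums held 75.3 ± 15.8 CPM of Gabrr3 in Ddit4l-only, 6.60 ± 8.67 CPM in Vsx1-only and 4.83 ± 5.90 CPM in Sox6-only cells (SD, n = 2 mice). The log2 fold change was 4.02 ± 2.11 for Ddit4l-only over Sox6-only cells (edgeR adjusted p = 0.706) and 3.42 ± 2.13 for Ddit4l-only over Vsx1-only cells (adjusted p = 0.583), so neither was called. It was 0.61 ± 2.61 for Vsx1-only over Sox6-only cells (edgeR adjusted p = 1.0), and this direction turned with the processing. DESeq2 gave adjusted p-values of 0.0618 and 0.0948 for the contrasts with Ddit4l-only cells, also short of the threshold. Without cells high in rod transcripts the log2 fold changes were 5.16 over Sox6-only and 6.13 over Vsx1-only cells, and neither was called. The summed horizontal cell list, given above, also had its highest median cell in the Ddit4l-only group, though its retina ranges overlapped. Of that list only Calb1 and Sept4 had at least 1 TPM in most cells, and the other markers had a median of 0. The part of this list in the Gabrr3 result was not tested.

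A count of Gabrr3 was present in 34 of 59 Ddit4l-only cells (57.6%, exact 95% interval 44.1 to 70.4%), 7 of 60 Vsx1-only cells (11.7%, 4.82 to 22.6%) and 9 of 151 Sox6-only cells (5.96%, 2.76 to 11.01%). These intervals cover counting error only and treat cells as independent. By retina the share was 40 to 70% in Ddit4l-only, 0 to 25% in Vsx1-only and 0 to 10.9% in Sox6-only cells. With each cell thinned to 200000 counts, it was 54.2%, 6.67% and 3.97% in the same groups. None of the 62 wells under the gene minimum had a count, which allows a share of up to 4.84% of such wells with a count (3 counts over 62), but at a median of 8838 counts per well this sets no limit on expression. Among the Ddit4l-only cells, the 34 with Gabrr3 had a median of 269 TPM of Gabrr2 and the 25 without it 312 TPM.

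**Figure D4:**
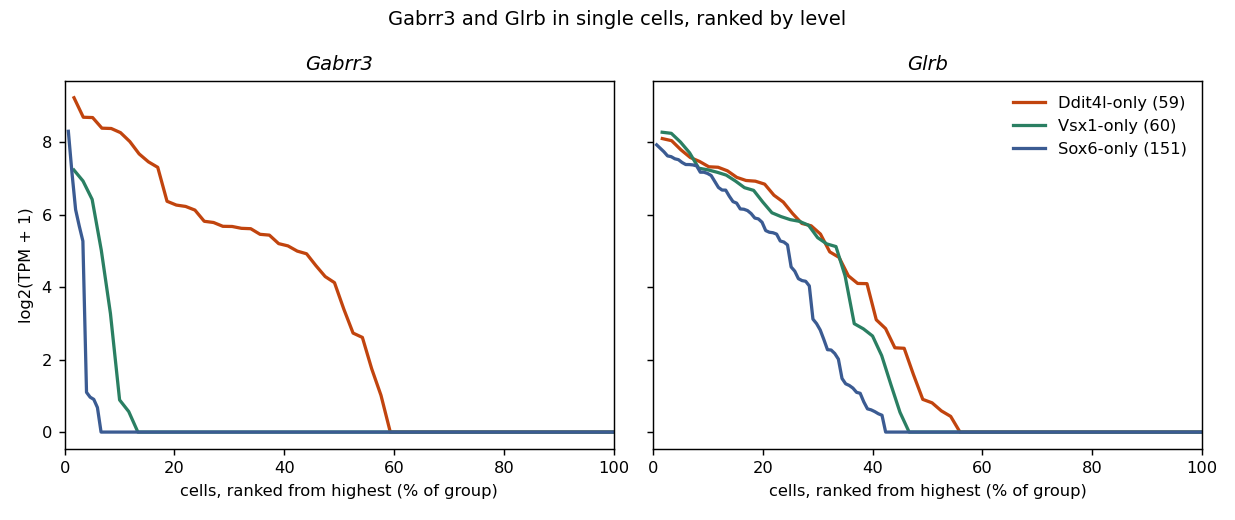
Cells ranked from the highest level down (horizontal axis, percent of the group) against log2(TPM + 1) of Gabrr3 (left) and Glrb (right) in 59 Ddit4l-only, 60 Vsx1-only and 151 Sox6-only cells. The Gabrr3 curve of Ddit4l-only cells reaches 0 after 57.6% of the cells, against 11.7% and 5.96% in the other groups, while the Glrb curves end at 54.2%, 45% and 41.7%.

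Cells with several markers were closer to the Vsx1-only and Sox6-only groups in Gabrr2. In Gabrr3 they averaged 76.5 TPM over 18 cells, 8 of which (44.4%) had a count, against 69.5 TPM in Ddit4l-only cells. The 12 of them with Ddit4l had a median of 1291 TPM of Gabrr2, and 6 had a Gabrr3 count. Of these 12 cells, 10 also had Sox6, with a median of 1341 TPM of Gabrr2, and 4 of the 10 had a Gabrr3 count. The 6 without Ddit4l had a median of 1792 TPM of Gabrr2, and 2 had a Gabrr3 count. A Gabrr3 count was also found in 8 of the 33 cells with no marker. These 33 averaged 788 TPM of Gabrr2 and 379 TPM of Gabrr1, with Gabrr2 at 1572 TPM in retina 1Ra and at 208 to 603 TPM in the other retinas. Whether cells with several markers were doublets was not tested.

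Glrb, the glycine receptor beta subunit, was found in all groups at lower mean levels than Gabrr1 and Gabrr2. Its mean was 15.96, 46.02, 62.7 and 30.96 TPM in Ddit4l-only cells of 1la, 1Ra, 2la and 2Ra, 43.01, 41.5, 31.2 and 53.6 TPM in Vsx1-only cells and 17.5, 11.7, 32.2 and 47.7 TPM in Sox6-only cells. The retinas of the groups overlapped. Mouse sums held 66.7 ± 15.8 CPM in Ddit4l-only, 57.1 ± 2.08 CPM in Vsx1-only and 46.2 ± 30.2 CPM in Sox6-only cells (SD, n = 2 mice). The log2 fold changes were 0.63 ± 0.47 for Ddit4l-only over Sox6-only, 0.17 ± 0.47 for Ddit4l-only over Vsx1-only and 0.46 ± 0.48 for Vsx1-only over Sox6-only cells, with edgeR adjusted p-values of 0.80, 0.939 and 0.909. An SE of that size leaves a 2-fold difference undecided.

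Within each group Glrb was uneven over cells. It had a count in 32 of 59 Ddit4l-only cells (54.2%), 27 of 60 Vsx1-only cells (45%) and 63 of 151 Sox6-only cells (41.7%). At 20 TPM or more there were 20, 20 and 39 cells, whose medians were 122, 104 and 102 TPM, with no test since Glrb itself chose these cells. A count under 5 TPM was found in another 7, 3 and 17 cells. Glrb was at most weakly correlated with the rho subunits across these cells, which share animals and depth. Its Pearson r with Gabrr1 was 0.09 in Ddit4l-only, -0.09 in Vsx1-only and -0.13 in Sox6-only cells, and with Gabrr3 in Ddit4l-only cells it was 0.28 over 59 cells.

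Of the alpha subunits, which form the glycine binding site, none was common at more than a trace. Glra1 had a count in 10 of 59 Ddit4l-only cells (16.9%, exact 95% interval 8.44 to 28.97%), 8 of 60 Vsx1-only cells (13.3%, 5.94 to 24.6%) and 5 of 151 Sox6-only cells (3.31%, 1.08 to 7.56%). After thinning to 200000 counts the shares were 13.6%, 8.33% and 1.99%. Its mean per retina was 0.134 to 8.76 TPM in Ddit4l-only, 0 to 10.1 TPM in Vsx1-only and 0 to 5.29 TPM in Sox6-only cells, with overlapping ranges. The log2 fold changes were 1.38 ± 1.68 for Ddit4l-only over Sox6-only, -0.04 ± 2.02 for Ddit4l-only over Vsx1-only and 1.42 ± 2.10 for Vsx1-only over Sox6-only cells, and edgeR's adjusted p-values were 0.909, 1.0 and 0.956.

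Few cells carried most of the Glra1 signal. Among the kept cells 15 reached 20 TPM, with 3 each in the Ddit4l-only, Vsx1-only and Sox6-only groups, 1 with several markers and 5 with no marker. The highest value, 257 TPM, was in a cell with no marker of retina 1la. Of these 15 cells, 9 also had a Glrb count. Their median summed amacrine marker level was 4.12 TPM, against 2.35 TPM in the other kept cells. The highest sums among the 15 were 1561 and 1180 TPM (no marker), 414 TPM (Sox6-only) and 106 TPM (Vsx1-only). Gad1, an amacrine marker, reached 20 TPM in 3 of the 15. Without cells at 100 TPM or more of summed amacrine markers, Glra1 averaged 3.75, 2.49 and 1.39 TPM in Ddit4l-only, Vsx1-only and Sox6-only cells. With those cells it averaged 3.58, 4.52 and 1.63 TPM.

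Glra2 had a count in 4 of 59 Ddit4l-only cells (6.78%), 6 of 60 Vsx1-only cells (10%) and 18 of 151 Sox6-only cells (11.9%), with a median of 1.5, 1.04 and 1.0 counts in those cells. Its mean was 0.091, 0.1, 0.0025 and 44.9 TPM in Ddit4l-only cells of 1la, 1Ra, 2la and 2Ra, 0.027 to 0.165 TPM over the retinas in Vsx1-only cells and 0.057, 0.169, 0.082 and 1.32 TPM in Sox6-only cells. Only 3 kept cells reached 20 TPM, all from retina 2Ra, at 449 TPM (Ddit4l-only), 53.9 TPM (Sox6-only) and 39.3 TPM (no marker). Their summed amacrine marker levels were 727, 852 and 1180 TPM, against a median of 2.38 TPM in the other kept cells. The 449 TPM cell also held 182 TPM of Glra4, a further alpha subunit that reached 20 TPM in 1 other kept cell.

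The 449 TPM cell gave nearly all of the Ddit4l-only level of Glra2. Its log2 fold changes were 3.15 ± 2.00 for Ddit4l-only over Sox6-only cells, 5.08 ± 2.26 for Ddit4l-only over Vsx1-only cells and -1.928 ± 1.799 for Vsx1-only over Sox6-only cells, with edgeR adjusted p-values of 0.750, 0.452 and 0.891. DESeq2 called Ddit4l-only over Vsx1-only cells (5.07, adjusted p = 0.0182). Without the 6 Ddit4l-only, 4 Vsx1-only and 8 Sox6-only cells that had 100 TPM or more of summed amacrine markers, the mean of Glra2 over cells was 0.054, 0.087 and 0.087 TPM. Glra2 then no longer passed the filter on low counts, and no test was made.

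Glra3 was the most often detected alpha subunit and the most uniform, at a trace level. Its mean was 1.18 to 1.78 TPM over the retinas in Ddit4l-only, 0.896 to 1.98 TPM in Vsx1-only and 1.29 to 1.88 TPM in Sox6-only cells. A count was found in 67.8%, 75% and 74.2% of the cells, with a median of only 3.80, 3.87 and 4.44 counts in those cells, and thinning to 200000 counts lowered the shares to 30.5%, 36.7% and 38.4%. The log2 fold changes were -0.08 ± 0.83, -0.07 ± 0.83 and -0.01 ± 0.83 for Ddit4l-only over Sox6-only, Ddit4l-only over Vsx1-only and Vsx1-only over Sox6-only cells, with edgeR adjusted p-values of 0.999, 0.991 and 1.0. A single kept cell reached 20 TPM, the same no-marker cell of retina 2Ra that held Glra2. It had 134 TPM of Glra3, 1180 TPM of summed amacrine markers and no Gabrr1, Gabrr2 or Glrb.

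**Figure D5:**
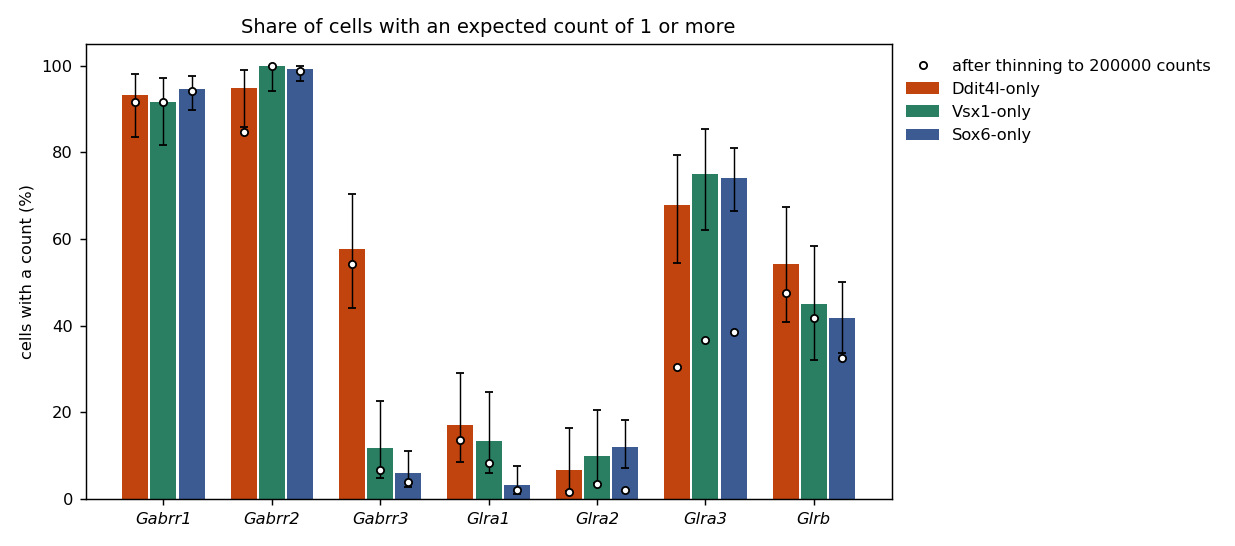
Share of cells with an estimated count of 1 or more (vertical axis, percent) for each gene in Ddit4l-only, Vsx1-only and Sox6-only cells, with exact 95% intervals as error bars and white dots for cells thinned to 200000 counts. Gabrr3 stands at 57.6% in Ddit4l-only cells, against 11.7% and 5.96% in the others, and the dots of Glra3 (30.5 to 38.4%) fall far below its bars while those of Gabrr1 and Gabrr2 mostly do not.

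By mean TPM over cells the order in Ddit4l-only cells was Gabrr1 (490.4), Gabrr2 (399.6), Gabrr3 (69.5), Glrb (44.02), Glra2 (7.65), Glra1 (3.58) and Glra3 (1.48). Gabrr1 and Gabrr2 overlapped in their retinas in that group, as did Gabrr3 and Glrb, and the 3 alpha subunits. Without cells at 100 TPM or more of summed amacrine markers, Glra2 averaged 0.054 TPM in Ddit4l-only cells, under Glra1 (3.75) and Glra3 (1.51). In Sox6-only cells the order was Gabrr2 (2309), Gabrr1 (457), Glrb (29.2), Gabrr3 (4.10), Glra1 (1.63), Glra3 (1.55) and Glra2 (0.439), and in Vsx1-only cells Gabrr2 (2077), Gabrr1 (377), Glrb (41.9), Gabrr3 (6.62), Glra1 (4.52), Glra3 (1.53) and Glra2 (0.081). In both of these groups the retinas of Gabrr2, Gabrr1 and Glrb did not overlap with each other, and Gabrr3, Glra1 and Glra3 overlapped.

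Genes with the most similar pattern were ranked by the Pearson r of log2(CPM + 1) over 12 sums (3 groups in 4 retinas of 2 mice) among 7128 genes. Closest to Gabrr2 were Epha4 (r = 0.961), an Eph receptor kinase, Elfn2 (0.957), a synaptic adhesion protein, and Il1rapl2 (0.955), an interleukin-1 receptor-like protein. Epha4 had 0.912 CPM in Ddit4l-only, 134 CPM in Vsx1-only and 80.5 CPM in Sox6-only cells. Closest to Gabrr3 were Ptpro (0.949), a receptor phosphatase, Kirrel3 (0.927), an adhesion protein with 891 CPM in Ddit4l-only, 4.45 CPM in Vsx1-only and 1.39 CPM in Sox6-only cells, and Prdx2 (0.899), a peroxiredoxin. Gabrr1 was closest to Pias2 (0.882), Mga (0.834) and Pip5k1a (0.825), and Glrb to Mapk1ip1 (0.934), Zfp655 (0.869) and Braf (0.863). Between the receptor genes r was -0.03 for Gabrr1 and Gabrr2 and -0.79 for Gabrr2 and Gabrr3. The 12 sums share animals and depth, so these are descriptions.

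Other genes of inhibitory transmission were described by count and median from edgeR's fit on mouse sums only, and 0 of them were called. Of all 16639 genes, that fit called 0.0% for Ddit4l-only over Sox6-only cells and 0.0% for Vsx1-only over Sox6-only cells. For Ddit4l-only over Vsx1-only cells it called 0.0421%. A count of 0 therefore does not set these genes apart from the rest. Of 16 GABA-A receptor subunit genes, which form the faster GABA-gated chloride channels, 10 were tested, and their median log2 fold change was 0.14 for Ddit4l-only over Sox6-only cells (all genes -0.08), 0.71 for Ddit4l-only over Vsx1-only cells (all genes -0.01) and -0.26 for Vsx1-only over Sox6-only cells (all genes -0.06).

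Among 14 anchoring and trafficking genes, all tested, the median was -0.03, -0.14 and 0.15 for Ddit4l-only over Sox6-only, Ddit4l-only over Vsx1-only and Vsx1-only over Sox6-only cells. Gphn, which encodes gephyrin, gave 0.15 ± 0.31, 0.41 ± 0.31 and -0.25 ± 0.31 (edgeR adjusted p = 0.963, 0.658 and 0.930). Map1b, a microtubule protein known to bind rho subunits, gave -0.38 ± 0.20, -1.21 ± 0.21 and 0.83 ± 0.20 (adjusted p = 0.711, 0.193 and 0.446). Among 14 genes of the chloride gradient and of transmitter supply, 10 were tested, with medians of -0.08, 0.80 and -0.62. For both lists the medians over all genes were -0.08, -0.01 and -0.06. Most of these 10 genes had a median of 0 TPM in every group, so the list medians rest largely on genes near the floor. Slc12a5, the chloride exporter KCC2 that keeps neuronal chloride low, gave -0.29 ± 0.14, -0.65 ± 0.14 and 0.36 ± 0.14 (adjusted p = 0.688, 0.232 and 0.587).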

How the data were processed

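Single cells were sorted from dissociated retinas and made into libraries with Smart-seq2, per the labels' protocols. RSEM 1.2.28, TopHat2 2.0.10 and build mm10 are named in the submitters' processing notes; the annotation is not given in the sources used here. The authors deposited RSEM expected counts (estimated, not normalised) and TPM per gene and cell, and both were used as deposited. PCR copies were not marked by molecular identifiers, so intervals cover counting error only, and nothing was done about doublets beyond setting cells with several markers aside.

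Expected counts were rounded after summing over the cells of each mouse and group (27646550 to 96078514 counts per sum), filtered with filterByExpr, scaled by TMM and tested with edgeR 4.0.16 in R 4.3.3, the mouse as a block. The block comes from the design, since the same 2 mice gave all groups; same-mouse deviations correlated at 0.046, 0.102 and 0.038 over 7135 genes. With 2 mice, p-values rest on very few degrees of freedom. The SE given with an edgeR log2 fold change is its absolute value divided by the square root of the F statistic of edgeR's test. DESeq2 1.42.0 and limma 3.58.1 on log2(mean TPM + 1) were alternatives. The procedure was also run on simulated data, with the same relative spread for every gene and changes only in genes at 20 CPM or more. Such data do not represent genes with few or uneven counts. Thinning was done without replacement. The genes, groups and lists were chosen with earlier results of these data known. Genes named beside the 7 were the 3 most alike to each with a mean of at least 20 CPM, and list members among the 6 with the highest mean TPM. Gphn is named outside this rule, after its values were seen, because it anchors Glrb.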

Additional observations from a re-analysis of the deposited data

Results flagged for a closer look

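A retina far from the other 3 of its group was found 4 times among the mean levels, a test that flags about 1 in 20 groups by chance. These were the 1767 TPM of Gabrr2 in Sox6-only cells of retina 2Ra (lowest), the 22.3 TPM of Gabrr3 in Vsx1-only cells of 1la (highest), the 44.9 TPM of Glra2 in Ddit4l-only cells of 2Ra (highest) and the 1.325 TPM of Glra2 in Sox6-only cells of 2Ra (highest).

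The 2 mice moved in opposite directions in a pair of cases, and the difference between mice was not tested in either. The Gabrr3 difference of Vsx1-only minus Sox6-only cells was 22.3 and 0.059 TPM in 1la and 1Ra, and -3.991 and -8.435 TPM in 2la and 2Ra. The Glra1 difference of Ddit4l-only minus Vsx1-only cells was 8.041 and 1.831 TPM in 1la and 1Ra, and -5.678 and -9.784 TPM in 2la and 2Ra.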

How the results depend on the processing

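The number of genes called depended on the processing more than any other value. For Vsx1-only over Sox6-only, Ddit4l-only over Sox6-only and Ddit4l-only over Vsx1-only cells it was 0, 0 and 7 in the analysis reported, 850, 760 and 1617 with DESeq2, 66, 24 and 231 with limma on mean TPM, 117, 82 and 333 with sums per retina and the replicate block, and 16, 2 and 63 without the block, that is with the pairing by mouse ignored. It was 1 and 4 for Vsx1-only over Sox6-only and Ddit4l-only over Vsx1-only cells with a marker threshold of 50 TPM. For Ddit4l-only over Vsx1-only cells it was 4 with a minimum of 5000 genes, 0 without cells high in rod transcripts, and 0 to 11 with each retina left out in turn (0 without 1la, 0 without 1Ra, 11 without 2la, 4 without 2Ra). For Vsx1-only over Sox6-only cells it was 6 without cells high in amacrine transcripts, an alternative added after seeing the data. The cause of these shifts was not tested. Leaving out a whole mouse left no residual degrees of freedom, so only folds without a test were given. Of 321 fold changes of the 7 genes recomputed with a test, 283 kept direction and side of the threshold, 7 passed it and 31 turned direction, and none of the turned ones was called. The 7 were Gabrr2 against both groups with DESeq2, retina sums and limma, and Glra2 (Ddit4l-only over Vsx1-only) with DESeq2. Thinning moved 17 of 42 shares of cells beyond their interval, and the median cell differed from the mean by more than the spread of the mice for 14 of 21 levels.

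Turned log2 fold changes for Vsx1-only over Sox6-only cells were, for Gabrr3, -0.668 with retina sums and -0.967 without rod-high cells (range -1.803 to 1.347 with each retina left out, as for the ranges that follow), for Glra1 a range of -0.138 to 3.778, and for Glra3 0.032 (RLE), 0.032 (DESeq2), 0.018 and 0.049 (10 and 50 TPM), 0.003 and 0.04 (1500 and 5000 genes), 0.108 (no rod-high cells), 0.007 (no amacrine-high cells) and 0.008 (limma), with a range of -0.348 to 0.258. For Ddit4l-only over Sox6-only cells they were -0.096 for Gabrr1 with retina sums (range -0.227 to 0.137), with ranges of -0.742 to 6.545 for Glra1 and -0.189 to 0.002 for Glra3. For Ddit4l-only over Vsx1-only cells they were 0.022 (retina sums), 2.781 (50 TPM), 0.43 (no amacrine-high cells) and 0.246 (limma) for Glra1 (range -0.858 to 2.767), -0.074 for Glrb without rod-high cells (range -0.245 to 0.385) and a range of -0.385 to 0.226 for Glra3. With mouse 1 and then mouse 2 left out, 8 of 42 fold changes turned. For Vsx1-only over Sox6-only cells these pairs of values were -2.769 and 3.046 for Gabrr3, 2.542 and -1.426 for Glra1, -0.081 and 0.058 for Glra3, and -0.275 and 1.203 for Glrb. For Ddit4l-only over Sox6-only cells the pair was 3.898 and -0.067 for Glra2. For Ddit4l-only over Vsx1-only cells the pairs were -1.637 and 2.594 for Glra1, 0.047 and -0.143 for Glra3, and 0.479 and -0.075 for Glrb.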
